A study of Mus musculus with 51 samples.

Results

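The proteasome genes described here are the 41 genes whose symbol starts with Psma, Psmb, Psmc, Psmd or Psme followed by a digit, leaving out Psmb8 and Psmb9, out of 12393 genes that the arrays measured through a probe set with a single gene symbol. A probe set is the group of short oligonucleotides that reads a transcript on an Affymetrix array. Altogether 74 probe sets read these genes, and 19 of the genes had more than 1. The probe set with the highest mean signal over all arrays stood for its gene. By role the genes were 8 alpha-ring subunits (Psma1 to Psma8), 8 beta-ring subunits (Psmb1 to Psmb7 and Psmb10), 6 ATPases of the regulatory particle (Psmc1 to Psmc6) and 11 non-ATPase subunits (Psmd1, Psmd2, Psmd3, Psmd4, Psmd6, Psmd7, Psmd8, Psmd11, Psmd12, Psmd13 and Psmd14). A further 3 were chaperones that assemble the base of the regulatory particle (Psmd5, Psmd9 and Psmd10) and 3 were activators that cap the core (Psme1, Psme3 and Psme4). The remaining 2, Psmc3ip and Psme3ip1, match the naming rule because they encode partners of a subunit, and they are not subunits themselves.

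The proteasome is the protease that degrades ubiquitin-tagged proteins in the cytosol and nucleus. Its core particle is a barrel of outer alpha rings, which gate the entrance, and inner beta rings, of which Psmb5, Psmb6 and Psmb7 carry the catalytic sites. The regulatory particle binds ubiquitin chains, removes them and unfolds the substrate with its ring of ATPases. In macrophages the proteasome also degrades the inhibitor of NF-kappaB after microbial recognition, and it supplies peptides for MHC class I, for which Psmb10 can take the place of Psmb7 in the immunoproteasome.

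The study measured alveolar macrophages (AM), the resident phagocytes of the airspace, from C57Bl/6 mice and from gp91phox-/- mice, in which the gene for a membrane protein of the NADPH oxidase, the enzyme of the respiratory burst, is deleted and which are a model of an immune-compromised host. The deletion is present in all cells of these mice, so that the comparison is not limited to macrophages. Mice received Aspergillus fumigatus conidia, the spores of a mould, by instillation into the lung at a dose labelled e6 or e7, or a mock inoculation, and AM were collected after 2 or 4 h. Untreated AM of each genotype were collected at 0 h, and a group of C57Bl/6 mice received polystyrene beads for 4 h. The C57Bl/6 groups (untreated at 0 h, then mock, e6 and e7 at 2 h and at 4 h) held 4 arrays each and the bead group 2, which made 30 arrays. The gp91phox-/- groups (untreated at 0 h, then mock, e6 and e7 at 2 h and at 4 h) held 3 arrays each, which made 21 arrays. The labels call the arrays biological replicates and do not say how many mice each represents. The animals' age was not in the sources used here. For the mock arrays of C57Bl/6 at 4 h, title and treatment field disagree, the field giving conidia, and their titles were followed.

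All values below are log2 of the deposited signal, and a difference is a difference of group means on that scale, given ± its standard error (SE). Array scaling held the trimmed mean signal between 500.183 and 500.241 on every array. Cybb, which encodes gp91phox, read 10.59 to 12.12 on the C57Bl/6 arrays and 6.77 to 9.06 on the gp91phox-/- arrays, with no overlap. The mean log2 signal of 14 AM marker genes lay between 12.19 and 12.996 on all arrays, and that of 12 neutrophil markers between 4.59 and 8.43 with a median of 5.56. It was above 7 on 3 arrays, C57Bl/6 4 h mock replicate 3 (8.43), 4 h e6 replicate 4 (7.70) and 4 h e7 replicate 3 (7.31). The log2 ratio of signals from the 3′ and 5′ ends of control transcripts, a measure of RNA length after amplification, ran from 0.92 to 5.32. A gene was called where its adjusted p-value (limma, Benjamini-Hochberg over all 22626 probe sets) was under 0.05. Beside the first count of called members in a comparison stands the percentage of all probe sets called in it. Most counts under altered settings stand without it, and these do not show whether members changed apart from other genes. In bulk RNA, a smaller share of the cells that use a gene and less of its RNA per cell cannot be told apart.

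The proteasome genes were abundant and steady in AM. In all, 40 of the 41 (Psmc3ip being the exception) lay in the upper part by mean signal of the genes measured, and 40 had a signal of at least 50 on every array. The range of their 15 group means had a median of 0.66, against 0.84 for the 6197 genes in the upper part by mean signal and 1.35 for all genes. Their standard deviation within groups had a median of 0.21, against 0.26 for the upper genes and 0.42 for all. Psma6, an alpha-ring subunit, was among the steady members, with group means from 12.82 to 13.20. Psmd8, a subunit of the lid that covers the regulatory particle, had the widest range of group means, from 9.33 (C57Bl/6 4 h e7) to 11.21 (gp91phox-/- 4 h e7). Psma8, the alpha subunit of the testis proteasome, read 6.01 to 7.87 over the 51 arrays.

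**Figure D1:**
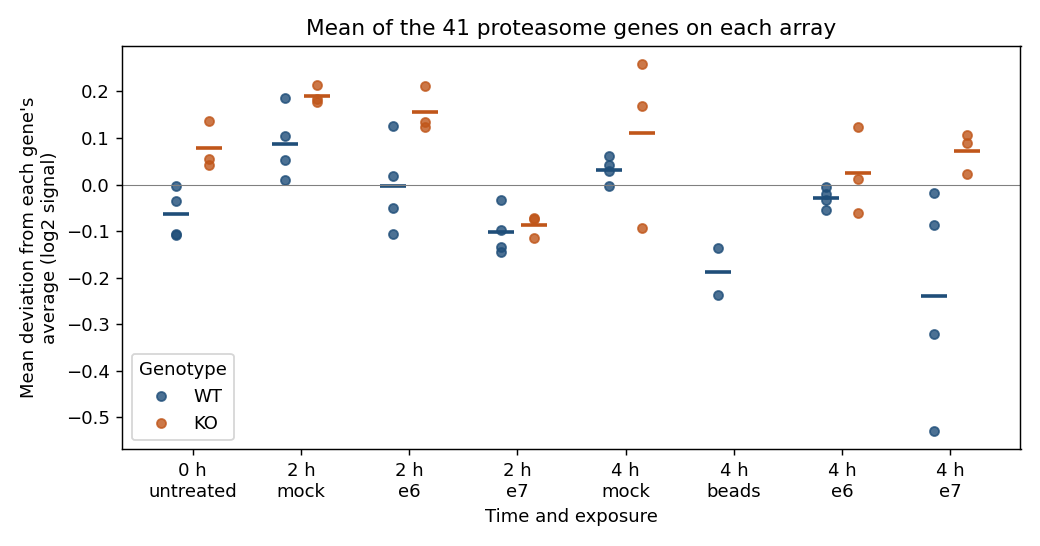
Mean deviation of the 41 proteasome genes from their own mean over all arrays (log2), on the vertical axis, for every array by time and exposure. Points are arrays coloured by genotype and bars are group means. C57Bl/6 4 h e7 arrays spread from -0.53 to -0.02, while gp91phox-/- 2 h mock arrays lay at 0.18 to 0.21.

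To show each array in a single value, every gene was set against its own mean over the 51 arrays and the deviations were averaged. C57Bl/6 4 h e7 replicate 3 was lowest at -0.53 and gp91phox-/- 4 h mock replicate 2 highest at 0.26. In C57Bl/6 the group means were -0.06 untreated, 0.09, -0.00 and -0.10 for mock, e6 and e7 at 2 h, 0.03, -0.03 and -0.24 for mock, e6 and e7 at 4 h, and -0.19 with beads. In gp91phox-/- they were 0.08 untreated, 0.19, 0.16 and -0.09 at 2 h, and 0.11, 0.02 and 0.07 at 4 h, in the same order. The lowest group means were thus in C57Bl/6 AM 4 h after e7 conidia or beads and in both genotypes 2 h after e7 conidia. Gene by gene, 18 members had their lowest group mean in C57Bl/6 4 h e7, 6 in gp91phox-/- 2 h e7 and 5 with beads, and 28 had their highest in a gp91phox-/- group. Over the 25 comparisons made, 9 members were never called (Psma6, Psma8, Psmb4, Psmc2, Psmc3, Psmd6, Psme3, Psme3ip1 and Psme4). Psma2, Psma5, Psmb3, Psmd5 and Psmd8 were called most often, in 4 comparisons each.

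Promoters are shown for 4 of the genes called most often, so that the sequence ahead of each transcription start can be read beside its response. They come from RefSeq on GRCm38.p6, whose table held 34 of the 41 genes, and each runs 5′ to 3′ on the gene's strand from 250 bases before the start to 50 after it. The genome build behind the arrays' annotation is not given in the sources used here. Capitals mark CCAAT, the box bound by NF-Y, and TGANNNNGC, on either strand. TGANNNNGC is a loose form of the core of the antioxidant response element, which Nfe2l1 and Nfe2l2 bind, with 4 bases left free. The 4 genes were Psmd8 (chr7:29180624-29180923, minus strand), Psmb3 (chr11:97703184-97703483, plus strand), Psmd5 (chr2:34870913-34871212, minus strand) and Psma5 (chr3:108256676-108256975, plus strand).
Psmd8: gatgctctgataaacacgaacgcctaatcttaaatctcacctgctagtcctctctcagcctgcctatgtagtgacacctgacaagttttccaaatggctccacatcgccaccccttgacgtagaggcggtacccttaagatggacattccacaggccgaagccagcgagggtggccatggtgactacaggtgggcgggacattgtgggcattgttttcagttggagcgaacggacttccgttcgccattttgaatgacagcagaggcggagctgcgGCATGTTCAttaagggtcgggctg
Psmb3: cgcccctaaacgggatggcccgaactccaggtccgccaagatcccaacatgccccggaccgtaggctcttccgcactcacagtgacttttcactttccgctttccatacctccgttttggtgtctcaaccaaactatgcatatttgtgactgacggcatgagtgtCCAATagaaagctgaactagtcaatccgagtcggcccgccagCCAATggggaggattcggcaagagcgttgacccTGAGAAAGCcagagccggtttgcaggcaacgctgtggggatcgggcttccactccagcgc
Psmd5: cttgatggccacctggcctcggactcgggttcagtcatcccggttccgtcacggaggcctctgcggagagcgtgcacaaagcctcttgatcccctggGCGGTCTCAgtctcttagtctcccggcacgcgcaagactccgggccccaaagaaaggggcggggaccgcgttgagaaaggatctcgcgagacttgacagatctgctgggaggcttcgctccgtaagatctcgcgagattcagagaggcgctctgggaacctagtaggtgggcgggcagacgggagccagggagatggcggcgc
Psma5: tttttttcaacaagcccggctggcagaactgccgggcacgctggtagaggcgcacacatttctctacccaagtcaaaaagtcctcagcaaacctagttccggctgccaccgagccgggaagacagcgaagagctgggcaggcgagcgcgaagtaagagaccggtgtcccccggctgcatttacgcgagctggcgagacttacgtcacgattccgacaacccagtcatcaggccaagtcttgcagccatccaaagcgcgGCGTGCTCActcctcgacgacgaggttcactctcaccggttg

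Each of these 4 promoters held 1 match to TGANNNNGC, and Psmb3 also held 2 CCAAT boxes. Over both strands, TGANNNNGC occurred in 17 of the 34 promoters (50%) and in 41.4% of all 27025 promoters of the same length. TGACTCAGC, a stricter form contained in it, occurred in 0 of the 34 and in 0.4255% of all. CCAAT occurred in 13 (38.24%) against 37.92% of all. The pattern TTCNNNGAA occurred in 1, that of Psmd2 (2.941%), against 8.466% of all. The core of the interferon-stimulated response element, searched as GAAA, any 2 bases and GAAA, occurred in 4 (11.76%), those of Psmb3, Psmd4, Psmd9 and Psme1, against 3.489% of all. A match is a description of the letters in this window.

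The first question was how AM of normal mice changed after conidia. At the e6 dose no proteasome gene was called against mock at 2 h (0% of all probe sets; limma at an unadjusted p under 0.05 took 1 member and 945 probe sets) or at 4 h (0.00884%; unadjusted, 1 member and 1104 probe sets). The members' median difference was -0.08 at both times, against -0.00 and -0.01 for all genes.

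At 2 h after the e7 dose no member was called either, against 1.61% of all probe sets (0.844% higher and 0.769% lower), while 11 members and 3574 probe sets had an unadjusted limma p under 0.05. Psmb10, the inducible beta subunit of the immunoproteasome, read 9.39, 9.44, 10.34 and 9.96 after e7 and 10.52, 10.94, 10.63 and 10.36 after mock. All 4 e7 arrays lay below all 4 mock arrays. The difference of -0.83 ± 0.27 missed the threshold (limma, adjusted p = 0.097). Psmd1, a scaffold subunit of the base, read 10.43, 10.60, 10.90 and 10.65 against 11.21, 11.11, 11.20 and 11.04, again without overlap, at a difference of -0.50 (adjusted p = 0.055). In all, 9 of 41 members lay wholly below mock without overlap, as did 6% of all probe sets, and 33 of 41 differences were negative with a median of -0.21 against -0.02 for all genes. The 3′/5′ ratio moved with this group: it was 2.09 to 4.85 on the e7 arrays and 0.93 to 1.47 on the mock arrays. With that ratio as a covariate the members' median was -0.09, and 0 members and 45 probe sets were called. Of the AM list 2 of 14 genes were called, Fabp5 and Cd9, both lower, and of the neutrophil list 0 of 12.

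At 4 h after e7 conidia, proteasome genes changed in both directions in normal AM. Of 41 members, 16 were lower and 3 higher than mock, which is 39.0% and 7.32% of them, against 9.68% and 5.84% of all probe sets (15.5% in both directions). Among the 6197 genes in the upper part by mean signal, 20.4% were lower and 11.1% higher. The members' median was -0.27, that of all genes -0.08 and that of the upper genes -0.14. By role, 4 alpha-ring and 4 beta-ring subunits, 1 ATPase, 3 non-ATPase subunits, 2 chaperones, 1 activator and Psmc3ip were lower, and 1 alpha-ring subunit, 1 beta-ring subunit and 1 ATPase were higher.

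In the alpha ring, Psma5 and Psma2 fell without overlap. Psma5 read 11.71, 11.63, 11.43 and 11.88 after e7 and 12.17, 12.19, 12.24 and 11.99 after mock, a difference of -0.49 ± 0.11 (limma, adjusted p = 0.00242). Its second probe set, at a mean log2 signal of 10.93, differed by -0.26 and was not called (limma, adjusted p = 0.15). Psma2 read 11.97, 11.90, 12.15 and 12.09 against 12.37, 12.39, 12.35 and 12.30, a difference of -0.33 ± 0.10 (adjusted p = 0.0216). Neither gene had an e7 array within the mock range. Psma7 read 10.23, 9.98, 9.67 and 10.71 against 10.94, 11.06, 10.99 and 10.48, a difference of -0.72 ± 0.16 (adjusted p = 0.00219), with overlap between the replicates numbered 4. Psma4 fell by 0.61 (adjusted p = 0.0136). Psma3 rose: its e7 arrays read 12.96, 13.17, 13.51 and 12.90, all above the mock arrays at 12.86, 12.79, 12.81 and 12.81, a difference of 0.32 ± 0.11 (adjusted p = 0.0484). The ring therefore held subunits called in opposite directions, though the call of Psma3 was kept in 6 of 17 alternative ways of processing.

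In the beta ring, Psmb1, a non-catalytic subunit, read 9.68, 9.35, 8.80 and 10.54 after e7 and 10.59, 10.81, 10.58 and 10.76 after mock. Every e7 array was below every mock array, replicate 4 by the smallest margin, and the difference was -1.09 ± 0.25 (limma, adjusted p = 0.00261). Its second probe set, at a mean log2 signal of 6.22 against 10.53, had the opposite direction, 0.46 (and 0.34 against the e6 dose). Psmb3, another non-catalytic subunit, read 11.55, 11.20, 11.11 and 11.95 against 12.23, 12.46, 12.24 and 11.73, a difference of -0.71 ± 0.18 (adjusted p = 0.00503). The groups overlapped because e7 replicate 4 lay above mock replicate 4. Psmb2 fell by 0.63 (adjusted p = 0.00403). Psmb10 read 10.09, 9.06, 8.65 and 10.23 against 10.30, 10.39, 10.40 and 10.23, a difference of -0.82 ± 0.27 (adjusted p = 0.0316), to 0.566 of its mock level. Here replicates 2 and 3 were low and replicates 1 and 4 lay close to mock.

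Psmb7, the catalytic subunit with trypsin-like activity whose place Psmb10 takes in the immunoproteasome, had the largest rise of any member in this comparison. Its e7 arrays read 11.76, 12.28, 12.22 and 10.94 and its mock arrays 10.49, 10.48, 10.56 and 11.08. The first 3 e7 arrays stood above all mock arrays and replicate 4 did not. The difference was 1.15 ± 0.21 (limma, adjusted p = 0.00035), 2.21-fold over mock.

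In the regulatory particle, the ATPase Psmc4 read 10.65, 10.07, 9.84 and 11.37 after e7 and 11.21, 11.54, 11.24 and 11.24 after mock, a difference of -0.82 ± 0.19 (limma, adjusted p = 0.00248). The ATPase Psmc5 moved the other way, with 11.20, 10.76, 10.14 and 10.44 against 9.83, 9.85, 10.01 and 10.33, a difference of 0.63 ± 0.15 (adjusted p = 0.0036). In both genes 1 array kept the groups from separating, replicate 4 for Psmc4 and replicate 3 for Psmc5.

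Among non-ATPase subunits, Psmd8, a lid subunit, read 9.48, 8.95, 8.52 and 10.36 after e7 and 10.34, 10.48, 10.42 and 10.46 after mock. Replicates 1 to 3 were below all mock arrays and replicate 4 was within their range. The difference was -1.10 ± 0.23 (limma, adjusted p = 0.00104), to 0.468 of mock. Psmd4, a ubiquitin receptor of the particle, read 10.59, 9.28, 8.85 and 10.74 against 11.11, 11.04, 10.89 and 10.76, without overlap, a difference of -1.09 ± 0.24 (adjusted p = 0.00223). Psmd3, another lid subunit, read 8.98, 7.97, 7.27 and 9.14 against 9.10, 9.24, 9.23 and 9.12, a difference of -0.83 ± 0.26 (adjusted p = 0.0246). Psmd7, the lid partner of the deubiquitinase Psmd14, read 9.69, 8.33, 6.73 and 9.39 after e7 and was not called, with a difference of -0.50.

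Of the chaperones, Psmd5 read 8.99, 8.94, 8.61 and 9.40 after e7 and 9.36, 9.59, 9.41 and 9.70 after mock, a difference of -0.53 ± 0.13 (limma, adjusted p = 0.00336), and Psmd9 fell by 0.66 (adjusted p = 0.0237). The activator Psme1, an interferon-inducible cap subunit, fell by 0.68 (adjusted p = 0.004). Psmc3ip, a recombination cofactor that binds an ATPase subunit, read 5.07, 5.26, 4.98 and 6.55 against 6.92, 6.75, 6.02 and 6.91, a difference of -1.19 ± 0.30 (adjusted p = 0.00637), and its e7 replicate 4 overlapped mock. Of the 41 members, 6 lay wholly below mock without overlap (Psma2, Psma5, Psmb1, Psmb2, Psmd4 and Psme1), which is 14.6%, beside 5.56% of all probe sets. Wholly above mock lay 1, Psma3, beside 4.11% of all probe sets.

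**Figure D2:**
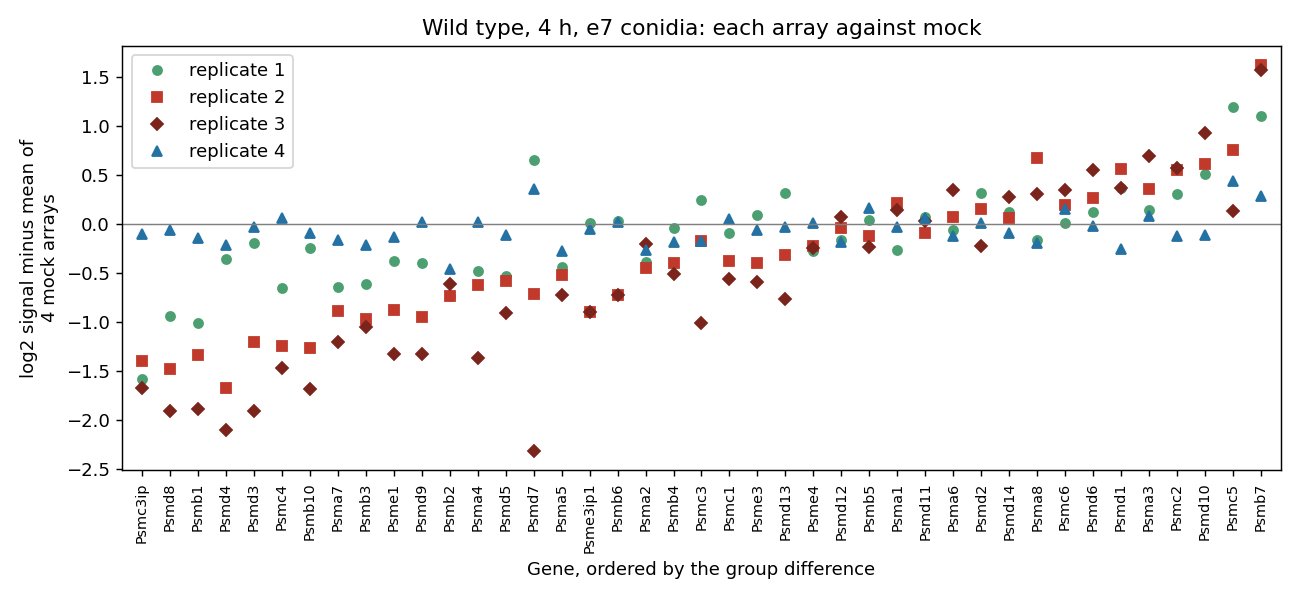
Each C57Bl/6 4 h e7 array minus the mean of the 4 mock arrays (log2, vertical axis) for the 41 genes (horizontal axis), ordered by the group difference. Symbols are the 4 e7 replicates. Replicates 2 and 3 lay farthest from 0 in most genes at both ends, and replicates 1 and 4 closer to it, with array medians of -0.09, -0.40, -0.59 and -0.06 for replicates 1 to 4.

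The SEs given share 1 spread per gene over all groups and can be too small for a group that spreads more. The 4 e7 arrays did not move alike, with a standard deviation of 0.23 in the members' mean deviation against 0.03 in mock. Their medians over the 41 genes, against the mean of the mock arrays, were -0.09, -0.40, -0.59 and -0.06 for replicates 1 to 4, while the medians over all genes were -0.02, -0.12, -0.12 and 0.02. Replicate 3 had a neutrophil marker mean of 7.31 and a 3′/5′ log2 ratio of 3.83, and replicate 2 had 5.56 and 2.34. The other e7 arrays had 5.22 and 1.64 (replicate 1) and 5.82 and 1.26 (replicate 4), and the mock arrays ranged over 4.77 to 8.43 and 1.19 to 2.34. Of the whole neutrophil list, 2 of 12 genes were called in this comparison, Csf3r and Mmp8, both lower. Of the AM list 3 of 14 were called, Siglecf, Car4 and Cd68, all lower, beside 20.4% of the upper genes called lower. With the 3′/5′ ratio as a covariate 3 members were higher and 16 lower, the same counts. Of these members 18 were shared, and Psma3 lost its call. The part of the neutrophil and AM markers in the result was not tested. Without replicates 2 and 3 of e7, 1 member was called in place of 19, Psmc5 at 0.82 (limma, adjusted p = 0.0105), and the differences were -0.50 for Psmd8, -0.57 for Psmb1, -0.28 for Psmd4 and 0.70 for Psmb7. Without the 3 arrays with neutrophil marker means above 7, 6 members were called, 2 higher and 4 lower.

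The same 4 e7 arrays were also set against the e6 arrays of that time. Of 41 members 18 were called, 5 higher (6.42% of all probe sets) and 13 lower (10% of all, 16.4% in both directions). Of the upper genes 12.2% were higher and 21.2% lower, and of the members 12.2% and 31.7%. Psmd8 fell by 1.26 ± 0.23 (limma, adjusted p = 0.000239) from e6 arrays at 10.38, 10.51, 11.07 and 10.39, and Psmc4 fell by 1.12 ± 0.19 (adjusted p = 0.000124) from 11.44, 11.50, 12.09 and 11.39. In both genes all e7 arrays, given above, were below all e6 arrays. Psmb7 rose by 1.29 ± 0.21 (adjusted p = 9.8e-05) from 10.10, 10.35, 10.66 and 10.95, where e7 replicate 4 overlapped. The chaperone Psmd10, a negative regulator of p53 and RB also known as gankyrin, read 9.65, 9.76, 10.08 and 9.03 after e7 and 9.17, 9.24, 8.85 and 8.73 after e6. It rose by 0.64 ± 0.17 (adjusted p = 0.00968) with overlap at replicate 4. Psmd5, at 9.48, 9.60, 9.80 and 9.68 after e6, fell by 0.66 ± 0.13 with no overlap (adjusted p = 0.000422). Psma5, at 12.17, 12.14, 12.36 and 12.11 after e6, fell by 0.53 ± 0.11 with no overlap (adjusted p = 0.000889).

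The 3 other genes that rose against e6 were Psmc5, Psmd1 and Psma3. Psmc5 rose by 0.65 ± 0.15 (limma, adjusted p = 0.00246) from e6 arrays at 9.81, 9.97, 9.89 and 10.27, with overlap at e7 replicate 3. Psmd1 read 11.31, 11.50, 11.32 and 10.69 after e7 and 10.87, 10.96, 10.40 and 10.87 after e6, a difference of 0.43 ± 0.14 (adjusted p = 0.0286) with overlap at e7 replicate 4. Psma3 rose by 0.39 ± 0.11 (adjusted p = 0.0128) from 12.67, 12.75, 12.70 and 12.86, all below its e7 arrays.

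Among the genes lower against e6, Psmd4 fell by 0.98 ± 0.24 (limma, adjusted p = 0.00437) from e6 arrays at 10.99, 10.83, 10.95 and 10.63. Psmb1 fell by 0.97 ± 0.25 (adjusted p = 0.00611) from 10.31, 10.68, 10.73 and 10.54. In both genes e7 replicate 4 lay within the e6 range and the other e7 arrays below it. Psmb10 fell by 0.78 ± 0.27 (adjusted p = 0.0409) from 10.12, 10.53, 10.39 and 10.10, and Psmb3 by 0.66 ± 0.18 (adjusted p = 0.00831) from 12.23, 12.16, 12.43 and 11.63. Psme1 read 10.10, 9.60, 9.15 and 10.35 after e7 and 10.17, 10.35, 10.69 and 10.38 after e6, a fall of 0.60 ± 0.16 (adjusted p = 0.00977). These 3 overlapped between the doses. Psma2 fell by 0.35 ± 0.10 (adjusted p = 0.0118) from 12.47, 12.33, 12.42 and 12.31, without overlap. In all, 6 of 41 members lay wholly below e6 and 1 wholly above, beside 4.49% and 3.55% of all probe sets. The others, Psma7, Psmb2 and Psmd12, fell by 0.51, 0.45 and 0.25. Without e7 replicate 2 the count of 18 became 10, without replicate 3 it became 8, and without both 1. Without the arrays with high neutrophil marker means it was 11. At 2 h no member differed between the doses (0% of all probe sets, with 1 member and 1588 probe sets at an unadjusted limma p under 0.05).

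**Figure D3:**
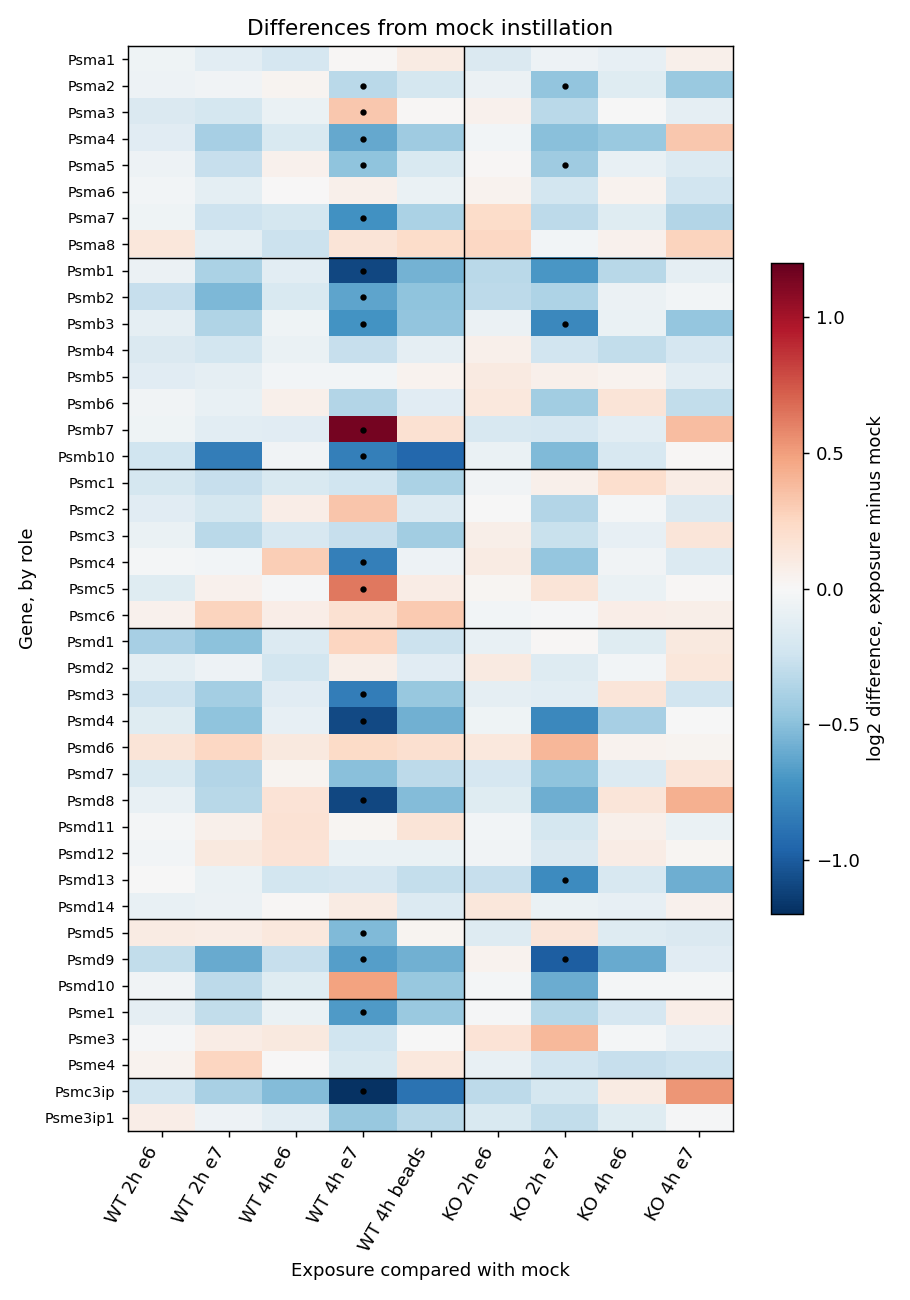
Differences from mock (log2, colour from -1.2 to 1.2) of the 41 genes, in rows by role, for each conidial dose, time and genotype and for beads, in columns. Dots mark called differences: 19 in C57Bl/6 4 h e7, 5 in gp91phox-/- 2 h e7 and 0 in the other columns.

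The same comparisons were made in gp91phox-/- AM. At 2 h, the e6 dose called no member (0%; unadjusted limma p under 0.05 in 0 members and 865 probe sets), and the e7 dose called 5 lower and 0 higher, against 2.54% and 6.11% of all probe sets (8.65% together) and 4.53% and 4.68% of the upper genes. The members' median was -0.27, with 34 of 41 negative and all 8 alpha-ring subunits among them, while the median of all genes was 0.23 and that of the upper genes 0.05. Quantile normalization moved the all-gene median by 0.21, to 0.02, turned the split of all called probe sets from 1382 higher and 575 lower to 640 and 933, and left the members' median at -0.26. Of the AM list, Fabp5 and Cd68 were called lower and 12 of 14 differences were negative. Of the neutrophil list Camp, 1 of 12, was called higher, and of the endothelial and stromal list Col1a1, 1 of 7. The mean log2 signal of the neutrophil list was 5.68 to 6.04 on the e7 arrays and 5.82 to 5.96 on the mock arrays. The part of these markers in the result was not tested.

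The 5 called genes separated fully from mock. Psma2 read 11.78, 12.09 and 11.92 after e7 and 12.41, 12.41 and 12.39 after mock, a difference of -0.48 ± 0.12 (limma, adjusted p = 0.0104). Psma5 read 11.52, 11.76 and 11.77 against 12.16, 11.99 and 12.17, a difference of -0.42 ± 0.13 (adjusted p = 0.0328). Both alpha-ring subunits were thus below their lowest mock array on every e7 array. The second probe set of Psma5 differed by -0.33 and was not called (limma, adjusted p = 0.131). Psmb3 read 11.63, 11.62 and 11.82 against 12.49, 12.41 and 12.47, a difference of -0.77 ± 0.21 (adjusted p = 0.0181). The lid subunit Psmd13 read 9.70, 9.44 and 9.83 against 10.51, 10.35 and 10.38, a difference of -0.76 ± 0.25 (adjusted p = 0.0498). Psmd9, a chaperone that holds the ATPase ring during assembly, had the largest fall, from 7.86, 8.05 and 8.23 to 7.33, 7.02 and 6.83, a difference of -0.99 ± 0.24 (adjusted p = 0.0104). The second probe set of Psmd9, at a mean log2 signal of 5.87 against 7.56, had the opposite direction, 0.32.

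Including the 5 called genes, 25 of 41 members lay wholly below mock without overlap and 2 wholly above, against 11.4% and 26.6% of all probe sets. Array by array, 31, 29 and 30 members of replicates 1 to 3 were below all 3 mock arrays, as were 22.3%, 23.8% and 22.0% of all probe sets. The 3′/5′ log2 ratio was 1.45 to 2.997 on these e7 arrays and 0.92 to 1.22 on the mock arrays. With that ratio as a covariate 4 members were called, all lower, and the members' median was -0.22. Leaving out single arrays gave counts of 1 (without e7 replicate 1 or mock replicate 3), 2 (without e7 replicate 3) and 3 (without e7 replicate 2 or mock replicate 1) in place of 5.

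Against e6 at 2 h, 4 members were lower (2.29% of all probe sets and 4.29% of the upper genes; 7.06% of all probe sets in both directions) and 0 higher (4.76% and 3.45%). Psmd9 fell by 1.03 ± 0.24 (limma, adjusted p = 0.0085) from e6 arrays at 8.08, 8.18 and 8.0009, and Psmb3 by 0.71 ± 0.21 (adjusted p = 0.0322) from 12.28, 12.38 and 12.52. Psma5 fell by 0.44 ± 0.13 (adjusted p = 0.0321) from 12.18, 12.08 and 12.11, and Psma2 by 0.41 ± 0.12 (adjusted p = 0.0269) from 12.42, 12.26 and 12.33. All 4 were among the 19 of 41 members that lay wholly below e6 without overlap, beside 9.21% of all probe sets. Wholly above e6 lay 1 member, beside 22% of all probe sets. In this comparison the second probe set of Psmd9 had the opposite direction, 0.55. Leaving out single arrays gave counts of 0 to 2, with 0 when e7 replicate 3 was left out, 1 without e7 replicate 1 or e6 replicate 3, and 2 without e7 replicate 2 or e6 replicate 1 or 2. The mock and e6 comparisons share the e7 arrays. Quantile normalization moved the all-gene median here by 0.18 and the split of all called probe sets from 1078 higher and 519 lower to 612 and 878, and called 3 members.

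At 4 h in gp91phox-/- AM no member was called against mock after e6 (0.0796% of all probe sets, 0.0442% higher and 0.0354% lower) or e7 (0.00442%), and each comparison had 3 members at an unadjusted limma p under 0.05, beside 1719 and 1587 probe sets. After e7 the differences were 0.42 for Psmd8, 0.37 for Psmb7 and -0.46 for Psmb3. The members' median was -0.02 and that of all genes -0.05. Between the doses at 4 h no member was called (0.897%, 75 probe sets higher and 128 lower, or 315 and 157 under quantile normalization; unadjusted, 5 members and 3507 probe sets).

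Mock inoculation itself was set against untreated AM. No member was called in C57Bl/6 at 2 h (0.00442% of all probe sets) or 4 h (0.0133%), or in gp91phox-/- at 2 h (0.00442%) or 4 h (1.2%, of which 1.1% higher and 0.102% lower). Under quantile normalization the last of these had 81 probe sets higher and 62 lower in place of 248 and 23. Unadjusted limma p-values under 0.05 were held by 3, 2, 7 and 5 members, beside 2238, 1797, 1750 and 3395 probe sets. In gp91phox-/- AM at 2 h after mock, 13 of 41 members lay wholly above untreated and 5 wholly below, as did 9.95% and 8.12% of all probe sets. At 4 h, 2 lay wholly above and 6 wholly below, beside 16.3% and 5.94% of all.

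Beads, which test the uptake of particles that are not fungal, were measured on 2 arrays. No member was called against mock (1.14% of all probe sets; 10 members and 3937 probe sets at an unadjusted limma p under 0.05). In all, 14 of 41 members lay wholly below mock, as did 10.9% of all probe sets, and 30 of 41 differences were negative with a median of -0.18 against 0.16 for all genes. Psmb10 read 9.23 and 9.54 with beads, below all mock arrays given above, and its difference of -0.94 ± 0.33 was not called (limma, adjusted p = 0.128). The bead arrays had 3′/5′ log2 ratios of 4.11 and 5.32, the second being the highest of all arrays. With that ratio as a covariate the members' median was -0.08, and 0 members and 0 probe sets were called. Leaving out bead replicate 2 gave 1 call. Scaling bears on this comparison too, since quantile normalization moved the all-gene median by 0.13 and the split of called probe sets from 125 higher and 132 lower to 152 and 320.

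Set directly against beads, the e7 arrays at 4 h differed in 3 members, 2 higher (1.37% of all probe sets) and 1 lower (2.22%; 3.59% together). Psmb7 rose by 0.96 ± 0.26 (limma, adjusted p = 0.0319) over bead arrays at 10.77 and 10.90, and Psmd10 by 0.95 ± 0.21 (adjusted p = 0.0116) over 8.80 and 8.57. Psmd5 fell by 0.56 ± 0.15 (adjusted p = 0.0343) from 9.53 and 9.56. None of the 3 overlapped between groups, and leaving out either bead array ended all 3 calls. In all, 5 of 41 members lay wholly above beads and 2 wholly below, beside 4.94% and 12.8% of all probe sets. The count of called members was 1 without e7 replicate 2, 9 without e7 replicate 4 and 0 without e7 replicates 2 and 3. Quantile normalization moved the all-gene median here by -0.20 and turned the split of all called probe sets from 309 higher and 503 lower to 439 and 306, and called 2 members. No member was called between the e6 dose and beads (0.327%, 37 probe sets in each direction, or 137 higher and 46 lower under quantile normalization; 4 members and 3577 probe sets at an unadjusted limma p under 0.05).

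The design also asked whether AM of the immune-compromised host differ. In untreated AM, 2 members were called, both higher in gp91phox-/- (1.15% of all probe sets; 1.99% in both directions), and 33 of 41 differences were positive with a median of 0.10 against -0.06 for all genes. Psmb6, the catalytic subunit with caspase-like activity, read 12.0003, 11.78 and 11.88 in gp91phox-/- and 11.45, 10.89, 11.03 and 11.49 in C57Bl/6, a difference of 0.67 ± 0.19 (limma, adjusted p = 0.0476). Psmd12, a lid subunit, read 10.78, 10.83 and 10.65 against 10.38, 10.40, 10.30 and 10.30, a difference of 0.41 ± 0.09 (adjusted p = 0.00907). Neither gene overlapped between genotypes. The count of 2 fell to 0 without gp91phox-/- replicate 1 or 2, and to 1 without gp91phox-/- replicate 3 or C57Bl/6 replicate 2 or 3. In all, 11 of 41 members lay wholly higher, as did 6.5% of all probe sets.

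Averaged over the 7 conditions that both genotypes share, 15 members were higher and 2 lower in gp91phox-/-, against 21.9% and 11.6% of all probe sets (33.4% together) and 15.4% and 24% of the upper genes. As shares of the 41 these were 36.6% and 4.88%. The members' median was 0.11, with 30 of 41 positive, that of all genes 0.09 and that of the upper genes -0.04. Under quantile normalization the all-gene median moved by 0.13, to -0.03, and the split of all called probe sets went from 4945 higher and 2617 lower to 2847 and 3721. The members' median was then 0.13, and 18 were called. Markers of other cells moved with this comparison. T and NK cell genes were positive in 6 of 6, with a median of 1.04 and 4 called higher, and their mean log2 signal ran from 4.23 to 6.80 on gp91phox-/- arrays and from 3.90 to 5.44 on C57Bl/6 arrays. Of the AM list 7 of 14 genes were higher and 2 lower, of the 7 endothelial and stromal genes 3 were higher, and of the 12 neutrophil genes 1 was higher and 1 lower. Their part in the result was not tested.

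By role, the higher genes were 7 of 11 non-ATPase subunits, 4 of 6 ATPases, 2 of 8 beta-ring subunits, 1 of 8 alpha-ring subunits and 1 of 3 chaperones. All 6 ATPases had a positive difference. The lower genes were Psmd5 and Psmd14.

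Psmd8 differed most, with a lowest, median and highest array of 10.44, 10.998 and 11.55 in gp91phox-/- and 8.52, 10.37 and 11.07 in C57Bl/6, a difference of 0.69 ± 0.09 (limma, adjusted p = 2.71e-07). It was higher in gp91phox-/- in 7 of 7 conditions, by 0.62 untreated, 0.64, 0.58 and 0.38 after mock, e6 and e7 at 2 h, and 0.37, 0.35 and 1.89 at 4 h. The last of these was the widest. Psmb6 had 11.37, 11.91 and 12.41 against 10.80, 11.46 and 11.85, a difference of 0.51 ± 0.07 (adjusted p = 5.83e-07), and was also higher in 7 of 7 conditions, by 0.09 (2 h e7) to 0.67 (untreated). Psmd10 had 8.93, 9.64 and 9.98 against 8.57, 9.01 and 10.08, a difference of 0.48 ± 0.07 (adjusted p = 2.12e-06). It was higher by 0.37 to 0.67 in 6 conditions and differed by -0.02 at 4 h e7.

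**Figure D4:**
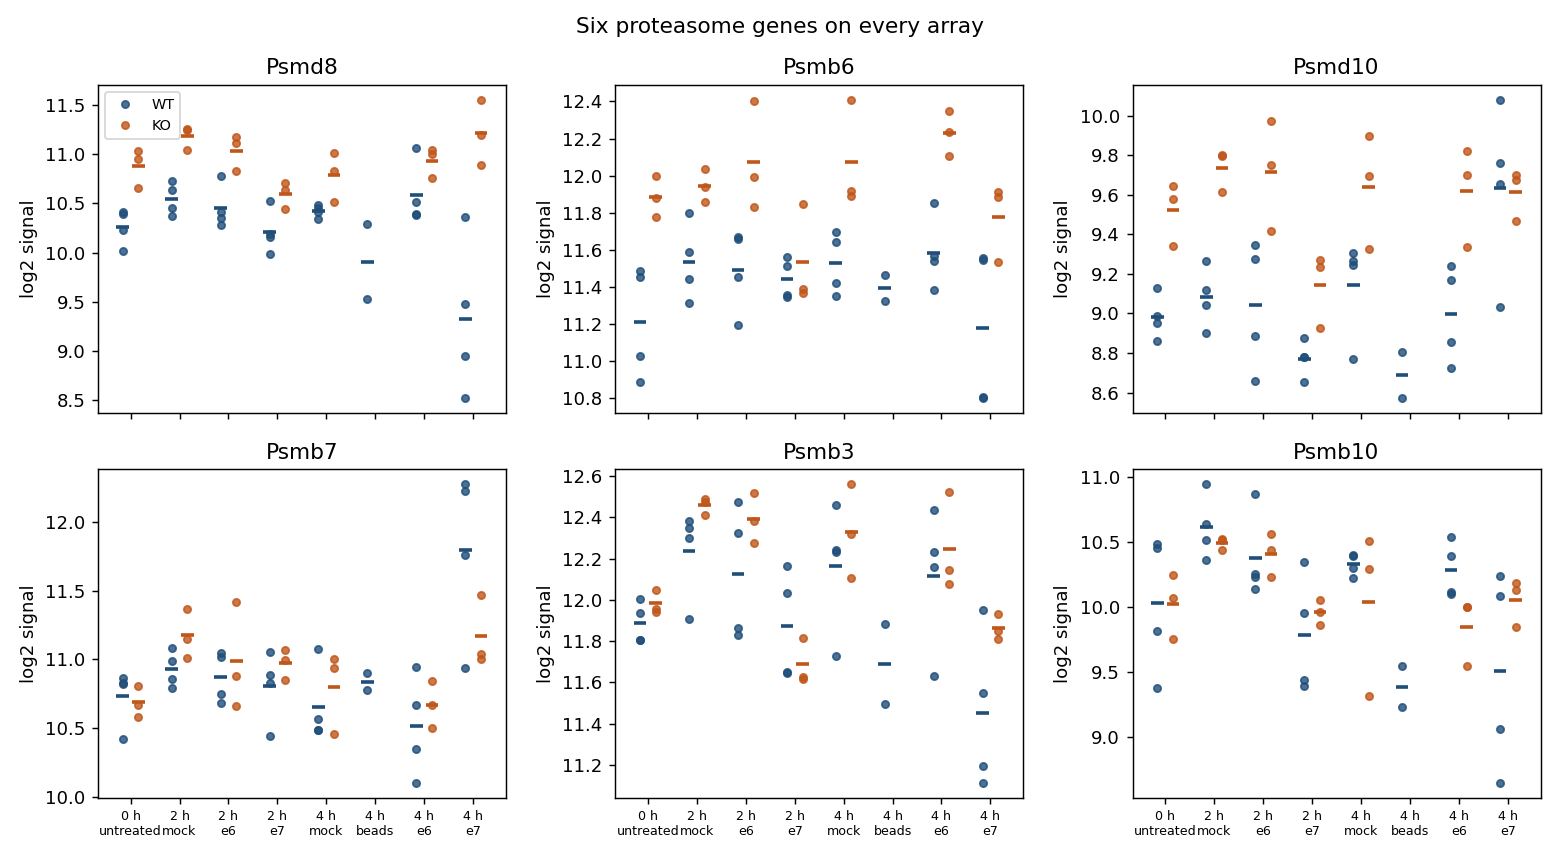
Log2 signal on every array (vertical axis) of Psmd8, Psmb6, Psmd10, Psmb7, Psmb3 and Psmb10 by group (horizontal axis), with points for arrays coloured by genotype. Psmd8 and Psmb6 lay higher in gp91phox-/- through the conditions, and Psmb7 rose on 3 of 4 C57Bl/6 4 h e7 arrays, to 11.76, 12.28 and 12.22.

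For Psmd7 the lowest, median and highest arrays were 8.58, 9.39 and 9.86 in gp91phox-/- and 6.73, 8.93 and 9.69 in C57Bl/6, a difference of 0.47 ± 0.14 (limma, adjusted p = 0.00753). Psmc5 had 10.15, 10.49 and 10.75 against 9.81, 10.06 and 11.20 (difference 0.30 ± 0.06, adjusted p = 0.000279). Psmd3 had 8.78, 9.26 and 9.91 against 7.27, 9.08 and 9.52 (difference 0.29 ± 0.11, adjusted p = 0.0361). In each of these the gp91phox-/- median was the higher. Psmd1 had 10.82, 11.10 and 11.43 against 10.40, 10.85 and 11.50 (difference 0.23 ± 0.06, adjusted p = 0.00193). Psmb5, the catalytic subunit with chymotrypsin-like activity, had a lowest, median and highest array of 11.57, 12.04 and 12.36 against 11.52, 11.76 and 12.09, a difference of 0.22 ± 0.05 (adjusted p = 0.000582). The ranges of the genotypes overlapped in each of these genes. The other genes called higher were Psmc4, Psmd2, Psmc1, Psma1, Psmc6, Psmd12 and Psmd11, with differences from 0.22 down to 0.09. Lower in gp91phox-/- were Psmd5, with 8.99, 9.32 and 9.61 against 8.61, 9.60 and 9.98 (difference -0.25 ± 0.05, adjusted p = 0.000284), and the deubiquitinase Psmd14, with 12.01, 12.24 and 12.58 against 12.11, 12.35 and 12.64 (difference -0.11 ± 0.04, adjusted p = 0.0403). Without C57Bl/6 4 h e7 replicates 2 and 3, 16 members were called in place of 17, of which 14 were shared. Psmc4, Psmd3 and Psmd14 lost the call, and Psmd6 (0.15) and Psme3 (-0.15) gained it.

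**Figure D5:**
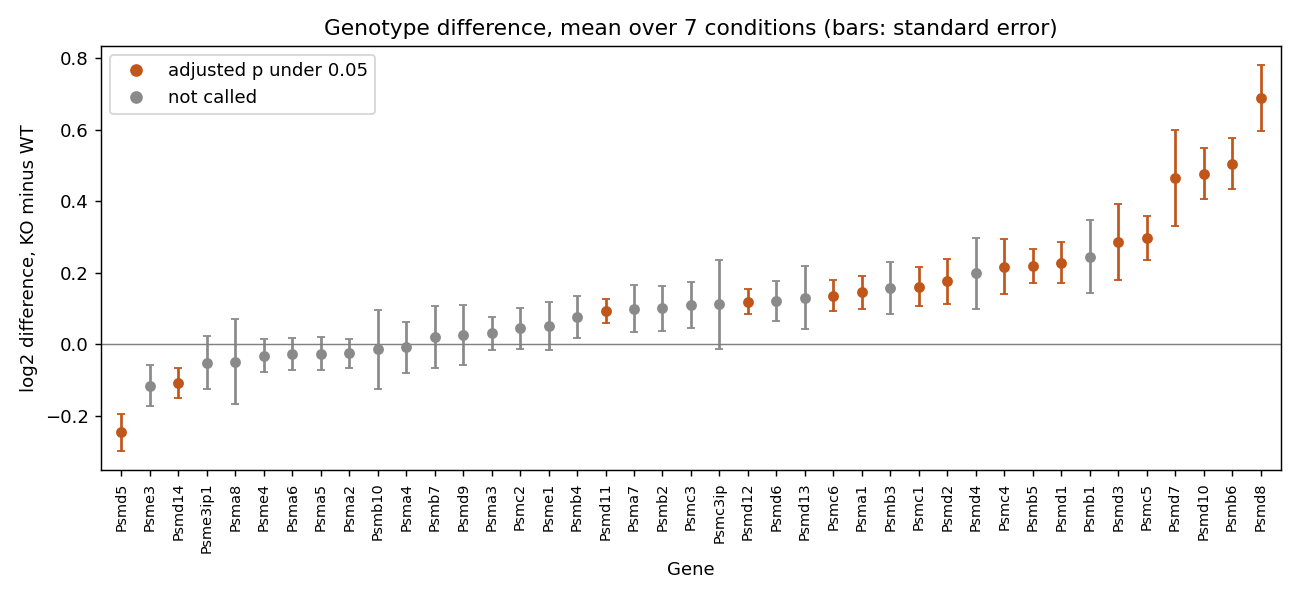
Difference gp91phox-/- minus C57Bl/6 averaged over 7 conditions (log2, vertical axis) for each of the 41 genes (horizontal axis), with bars of 1 standard error. Called genes are orange: 15 lay above 0, from 0.09 (Psmd11) to 0.69 (Psmd8), and 2 below it, Psmd5 and Psmd14.

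Whether the response to conidia depended on genotype was tested as the difference between the e7 or e6 responses of the genotypes. At 4 h after e7, 1 member was called (0.19% of all probe sets), Psmd8. Its gp91phox-/- arrays read 10.89, 11.55 and 11.20 after e7 and 10.83, 11.02 and 10.52 after mock, while its C57Bl/6 values, given above, fell. The responses differed by 1.52 ± 0.35 (limma, adjusted p = 0.0494). Over the alternatives the difference ranged from 0.92 to 1.87 and its adjusted p from 8.84e-05 to 0.487, and the call was lost in 15 of 23, 11 of which left out a single array (C57Bl/6 e7 replicate 2 or 3, any C57Bl/6 mock array, gp91phox-/- e7 replicate 2 or 3, or any gp91phox-/- mock array). Leaving out C57Bl/6 e7 replicate 4, whose Psmd8 value was near mock, raised the count from 1 to 9 members. No member differed in the 2 h e6 (0%), 2 h e7 (1.45%) or 4 h e6 (0.00442%) response, where 0, 6 and 0 members, beside 929, 3602 and 1370 probe sets, had an unadjusted limma p under 0.05. For the 2 h e7 response, quantile normalization turned the split of all called probe sets from 268 higher and 59 lower to 81 and 92.

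The members varied together only loosely. The mean pairwise correlation of their deviations within groups was 0.10, and 0.017 for the genes in the upper part by mean signal; over the 15 group means these were 0.21 and 0.024. Beta-ring subunits had the highest values, 0.27 within groups and 0.41 over group means. Alpha-ring, ATPase and non-ATPase genes had 0.09, 0.03 and 0.02 within groups. Psmd4, Psmb1, Psmd8 and Psmb3 followed the members' mean profile most closely, with r of 0.93, 0.90, 0.89 and 0.88 over the group means, and they contribute to that mean. Psmd6, Psme3, Psma8 and Psmb7 ran against it, with -0.44, -0.40, -0.30 and -0.25. Outside the set, the genes most like the members' mean over the 15 groups were Micos13 (r = 0.965), Ssu72 (0.961), Capg (0.959), Timm13 (0.956), Hmox2 and Pomp (0.955 each). All these points share arrays and scaling. Over the 51 arrays, 30 of 41 members had a negative correlation with the 3′/5′ ratio, 9 of them below -0.5. Within groups 24 were negative with a median of -0.10, against -0.02 for the upper genes.

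Second probe sets gave a look at the same genes through other oligonucleotides. Of the 33 other probe sets, 24 had a mean signal of at least 50. Their correlation with the main probe set over the 15 group means had a median of 0.38 and ran from -0.61 (Psmd11) to 0.98 (Psmd13). For C57Bl/6 4 h e7 against mock, the second probe sets of Psmb3, Psmc4, Psmd4 and Psma7 differed by -0.95, -1.37, -1.13 and -0.72, the same direction as the main ones. That of Psma5 differed by -0.26 without a call, and none of the 4 calls of Psma5 was kept with it. That of Psmb1 differed by 0.46, opposite to the main one, as was that of Psmd9 in gp91phox-/- 2 h after e7. In the genotype difference those of Psma1 (-0.68), Psmc6 (-0.11) and Psmd7 (-0.26) were opposite too. The opposite probe sets had mean log2 signals of 6.22 (Psmb1), 5.87 (Psmd9), 4.63 (Psma1), 10.24 (Psmc6) and 5.74 (Psmd7). The main ones of these genes had 10.53, 7.56, 11.99, 11.02 and 9.05. Of these opposite differences only that of Psma1 was called. A further probe set of Psmd11 (mean log2 signal 9.11) was called at -0.37 in the genotype difference (limma, adjusted p = 0.0128). The main one had 0.09. A further probe set of Psma5 (4.83) was called higher where the main one fell. It differed by 1.21 in C57Bl/6 4 h after e7 (limma, adjusted p = 0.00978). In gp91phox-/- 2 h after e7 it differed by 2.67 (adjusted p = 6.04e-05).

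Genes that build, regulate or feed the proteasome were taken from lists of related genes. Of 17 measured genes of assembly and regulation, 4 were higher and 3 lower in C57Bl/6 4 h after e7, beside 5.84% and 9.68% of all probe sets and 11.1% and 20.4% of the upper genes. Pomp, the chaperone of core particle assembly, averaged 9.56 after e7 and 10.60 after mock, a fall of 1.04 ± 0.28 (limma, adjusted p = 0.00808). The core assembly chaperones Psmg4 and Psmg1 fell by 0.97 (adjusted p = 0.00688) and 0.63 (adjusted p = 0.0176). Uchl5, a deubiquitinase of the regulatory particle, rose by 0.62, Zfand2a and Zfand5, which bind the proteasome, by 0.57 and 0.50, and Ngly1, which processes the transcription factor Nfe2l1, by 0.55. The 3 called core assembly chaperones were lower, while Psmg2 and Psmg3, of the same group, were not called.

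The same list had 3 higher and 2 lower genes in C57Bl/6 2 h after e7, beside 0.844% and 0.769% of all probe sets. Pomp fell by 1.12 ± 0.28 (limma, adjusted p = 0.0283) and Psmg4 by 0.96 (adjusted p = 0.04). Nfe2l2, the transcription factor of the antioxidant response, rose by 0.58 (adjusted p = 0.00555), Zfand2a by 0.72 and Zfand5 by 0.58. In gp91phox-/- 2 h after e7 the list had 1 higher and 4 lower genes, beside 6.11% and 2.54% of all probe sets, with Pomp lower by 1.13 ± 0.32 (adjusted p = 0.0244) and Psmg4, Psmg1 and the thioredoxin-like Txnl1 lower by 1.11, 0.68 and 0.52.

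Of 15 measured genes of ubiquitin supply and delivery, 2 rose in C57Bl/6 4 h after e7, the shuttle factors Rad23b by 1.41 ± 0.28 (limma, adjusted p = 0.000821) and Ubqln1 by 0.43. In that comparison 11.1% of the upper genes were higher and 20.4% lower. Of 9 genes of peptide handling for MHC class I, Irf1, an interferon-response transcription factor, rose by 0.86 (adjusted p = 5.82e-05) and the peptide transporter subunit Tap1 fell by 0.66 (adjusted p = 0.0253). Averaged over the 7 conditions, gp91phox-/- AM had 5 higher and 2 lower of the 17 genes of assembly and regulation, beside 21.9% and 11.6% of all probe sets, Pomp being higher by 0.39 ± 0.11 (adjusted p = 0.00783). Of the peptide handling genes 2 were higher, B2m, the light chain of MHC class I, by 0.34 and the peptidase Lap3 by 0.42.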

How the data were processed

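RNA of alveolar macrophages was labelled by a pair of amplification cycles and hybridised to Affymetrix mouse arrays, per the labels' protocols. The authors deposited linear signal intensity per probe set, scaled so that the mean after trimming 2% at each end is about 500. GCOS and RMA are named in the submitters' processing notes, without version or role. The genome build is not given in the sources used here. Symbols came from GEO's platform annotation: 20380 probe sets had 1 symbol, 691 several and 1555 none, and 64 control probe sets were left out. Values were taken as log2 with no pseudocount. limma 3.58.1 (R 4.3.3) fitted 1 mean per group to all 51 arrays, and p-values, two-sided, were adjusted by Benjamini-Hochberg over 22626 probe sets in each of 25 comparisons. They set a difference of group means against the spread between arrays within groups, shared over all groups. The fit was tested on simulated data. The labels do not say that replicate numbers pair the samples, and no pairing was used. Same-numbered deviations correlated at -0.10 to 0.08 over 161 pairs, 0 above 0.1. Differently numbered ones correlated at -0.11 to 0.11 over 420 pairs, 3 above 0.1. Genes with values in every array were those called in the most comparisons and up to 8 per direction in each comparison with the largest differences. The members and gene lists were chosen with earlier results of these data known. Alternatives changed the normalization, the low-signal filter and floor, array weights, the probe set, covariates, a replicate block and the arrays used.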

Additional observations from a re-analysis of the deposited data

Results flagged for a closer look

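In groups of 4 arrays, 14 of 287 member and group combinations (4.88%) had a highest or lowest array whose gap to the next array as a share of the group's range exceeded Dixon's critical value at the 95% level. Chance gives about 1 in 20. At 0 h in C57Bl/6, Psmb7 was lowest in untreated replicate 2 (10.42). At 2 h, Psma8 was highest in mock replicate 2 (7.81) and Psmb10 highest in e6 replicate 2 (10.87), while after e7 Psma8 was lowest in replicate 2 (6.38), Psmc1 lowest in replicate 3 (9.77) and Psmb4 highest in replicate 4 (12.13). Among the 4 h mock arrays, replicate 4 was highest for Psmb7 (11.08) and lowest for Psmc2 (12.27) and Psmd10 (8.77), and replicate 2 was highest for Psmc4 (11.54). Among the 4 h e6 arrays, replicate 4 was lowest for Psma4 (10.71) and Psmb2 (9.77), and replicate 3 was highest for Psmc4 (12.09) and lowest for Psmd1 (10.40). The number of these combinations is near the share that chance gives.

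The response of Psmd8 to e7 conidia at 4 h differed between genotypes by 1.52 on the log2 scale (limma, adjusted p = 0.0494; adjusted p from 8.84e-05 to 0.487 over the alternatives).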

How the results depend on the processing

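For each main comparison the count of called members was recomputed under every alternative. The share of all probe sets called under each alternative is not given beside these counts. They therefore do not show whether the members changed apart from other genes. In C57Bl/6 2 h e7 against mock the count of 0 became 2 with quantile normalization, 3 with only probe sets of mean signal 50 or more, 2 with signals under 50 set to 50, 4 with array weights and 1 with the second probe set per gene, and was 0 to 2 leaving out single arrays. In C57Bl/6 4 h e7 against mock the count of 19 became 0 with only the arrays compared, 1 without e7 replicates 2 and 3, 6 when the 3 arrays whose neutrophil marker mean was above 7 were left out (chosen after seeing the data), and 13 to 23 leaving out single arrays. Against e6 the count of 18 became 0, 1, 11 and 8 to 24 under the same settings. In gp91phox-/- 2 h e7 against mock the count of 5 became 15 with array weights, 1 with only the arrays compared and 1 to 4 leaving out single arrays. Against e6 the count of 4 became 11 with array weights, 2 with the second probe set, 0 with only the arrays compared and 0 to 2 leaving out single arrays.

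In gp91phox-/- 4 h e7 a floor of 50 gave 1 call against mock. Against e6, quantile normalization, the filter on mean signal and array weights gave 1 each and the floor 2. Array weights gave 2 calls for C57Bl/6 2 h mock against untreated and 1 for gp91phox-/- mock at 2 h and at 4 h. For untreated gp91phox-/- against C57Bl/6 the count of 2 became 8 with array weights, 0 with only the arrays compared and 0 to 2 leaving out single arrays. The genotype difference over 7 conditions stayed between 14 and 20 calls leaving out single arrays, against 17. Beads against mock gave 0 to 1 leaving out single arrays. For e7 against beads the count of 3 became 7 with the filter, 7 with the floor, 11 with the 3′/5′ ratio as a covariate, 0 with only the arrays compared, 0 without e7 replicates 2 and 3 and 0 to 9 leaving out single arrays. For e6 against beads the floor gave 1. Where 1 bead array was left, it was assumed to vary like the other groups.

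For the genotype difference in the 2 h e7 response array weights gave 1 call. For that at 4 h the count of 1 became 3 with the filter, 5 with array weights, 0 with the covariate, 0 with only the arrays compared, 0 without e7 replicates 2 and 3, 0 on leaving out those 3 arrays of high neutrophil signal, and 0 to 9 leaving out single arrays. The labels do not say what arrays of 1 replicate number share. A replicate block gave 1 call in C57Bl/6 2 h e7, 21 in C57Bl/6 4 h e7 and 5 in e7 against beads, and 18 for the genotype difference. Of 1854 values of single called genes, 1544 kept direction and side of the threshold, 303 lost the call and 7 reversed, all 7 with the second probe set: Psmb1 in C57Bl/6 4 h e7 (0.46 against mock, 0.34 against e6), Psmd9 in gp91phox-/- 2 h e7 (0.32 against mock, 0.55 against e6), and in the genotype difference Psma1 (-0.68), Psmc6 (-0.11) and Psmd7 (-0.26). Calls kept under every alternative applied to the gene were 9 of 17 for the genotype difference and 0 in the other comparisons with calls. The 9 were Psmb5, Psmb6, Psmc1, Psmc5, Psmd1, Psmd5, Psmd8, Psmd10 and Psmd12. Only Psmc1 among them had a second probe set, at a mean log2 signal of 3.67 against 10.01 for the main one. The rest had 1 probe set each, so the setting behind all 7 reversals could not be applied to them. With only the arrays compared, fewer arrays estimate the spread, and it is no longer shared with the other groups. The members' mean deviation had a standard deviation of 0.23 in C57Bl/6 4 h e7 and 0.03 in its mock group. The cause of the changed counts was not tested. Groups of 2 to 4 arrays limit the precision.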
